A study of Homo sapiens with 9 samples.

Results

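The genes described here are 42 genes of the unfolded protein response and of the ATF4 stress response, chosen by their symbols. They fall into 23 chaperones, sensors and degradation genes of the endoplasmic reticulum (ER), and 19 ATF4 targets and serine synthesis genes. A probe set of the array was counted for a member only where the platform annotation paired it with that symbol alone, and the brightest such probe set stood for the gene. By that rule 41 members had a probe set, of 19775 genes with one in the whole series, and 40 members were among the 13056 genes bright enough to be tested. The probe set of SYVN1, a ubiquitin ligase of ER-associated degradation (ERAD), is shared with another gene, so this member has no value. CHAC1, a glutathione-degrading enzyme and ATF4 target, was below the brightness filter, with signals of 1.22 to 3.86 in the 9 arrays.

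The series measured messenger RNA on 9 Affymetrix arrays in HepG2, a cell line from a human hepatocellular carcinoma that retains many functions of hepatocytes. In knockdown1 and knockdown2, 3 arrays each, small interfering RNAs had been directed at HNF4alpha and HNF4gamma, a pair of related nuclear receptors, and the 3 control arrays are labelled as the control of this knockdown. The labels say neither how knockdown1 and knockdown2 differ nor what the control cells received. Whether the replicates came from separate cultures is not stated either, and p-values then rest only on how these arrays scatter, which may be technical.

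In the ER, newly made secreted and membrane proteins fold with the help of chaperones such as HSPA5 (BiP), and proteins that fail to fold are returned to the cytosol by ERAD. An excess of unfolded protein is sensed by IRE1 (encoded by ERN1), ATF6 and PERK (EIF2AK3), which act through spliced XBP1, through cleaved ATF6 and through phosphorylation of the initiation factor eIF2alpha. Phosphorylated eIF2alpha slows general translation but favours translation of the transcription factor ATF4, which also answers amino acid shortage and switches on amino acid synthesis and aminoacyl-tRNA synthetases. Hepatocytes secrete most plasma proteins and carry a large ER. Splicing of XBP1, cleavage of ATF6, phosphorylation and protein levels are not seen by these arrays.

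Signals below are the deposited linear brightness values after each array was scaled to a common median of 14.1, and they compare arrays for 1 probe set, never one gene with another. Differences are log2 values after addition of 1.41, each ± the standard error (SE) of a limma fit over all 13056 genes and 9 arrays. A gene is called higher or lower where its p-value, adjusted by Benjamini-Hochberg over all tested genes, was under 0.05. Array medians had differed by up to 1.28 times before scaling, and log2 values of arrays in the same group correlated at 0.973 to 0.978 across genes. Scaling multiplied control replicate 2 by 0.904 and control replicate 3 by 1.15, so whether arrays overlap can depend on it. After scaling, the median log2 value of all tested genes varied over the control arrays with a standard deviation of 0.17. HNF4G, which encodes HNF4gamma, had signals of 14.4, 23.5 and 17.4 in knockdown1 arrays, 41.9, 24.4 and 28.6 in knockdown2 arrays and 45.2, 47.9 and 44.9 in control arrays. Every knockdown array lay below every control array, and the difference was -1.28 ± 0.28 (adjusted p = 0.000538) for knockdown1 and -0.56 ± 0.28 (adjusted p = 0.142) for knockdown2. A dimmer probe set of HNF4G had 12.7, 4.31 and 1.98 in knockdown1, 13.3, 1.04 and 2.84 in knockdown2 and 37.5, 28.4 and 21.3 in control arrays. HNF4A, which has no probe set to itself in the annotation, was not analysed here. All 11 hepatocyte markers examined were above the array median in each group. Of 4 endothelial markers, 3 were under that median in every group, and their summed signal was 74.4 to 91.9 in knockdown1, 87.5 to 109 in knockdown2 and 59.7 to 61.8 in control arrays. The summed signal of 6 fibroblast markers was 120.2 to 152 in knockdown1, 113 to 145 in knockdown2 and 99.3 to 143 in control arrays, and that of 4 annotated leukocyte markers 2706 to 3431, 3353 to 4211 and 2960.0 to 3928. Most of the leukocyte sum was LYZ, which averaged 3005 in knockdown1, 3714 in knockdown2 and 3325 in control arrays. Of the 4 leukocyte markers, 3, 3 and 2 were under the median in these groups. The part of other cell types in the results below was not tested.

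ATF4 targets and serine synthesis genes were called in both directions in both knockdowns, in knockdown1 at a share near that of all tested genes. In knockdown1, 4 of the 18 tested genes of this arm were higher and 3 lower than in control (38.9% called). Over all tested genes 33.3% were called in this comparison, 14.3% higher and 19.0% lower, that is 1866 higher and 2485 lower, in place of 3105 and 2628 with the values as deposited. In knockdown2, 3 were higher and 6 lower (50% called), where 27.6% of all tested genes were called, 13.7% higher and 13.9% lower. The median difference of the arm was 0.02 in knockdown1, against -0.01 over all tested genes, and -0.17 in knockdown2, against 0.01. Over the alternative settings and left-out arrays the first of these medians moved between -0.15 and 0.12. Both comparisons use the same 3 control arrays. In these bulk RNA samples, fewer cells of a type and less RNA per cell cannot be told apart. The knockdown2 count of 9 became 4 without control replicate 1 and 5 without knockdown2 replicate 2.

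**Figure D1:**
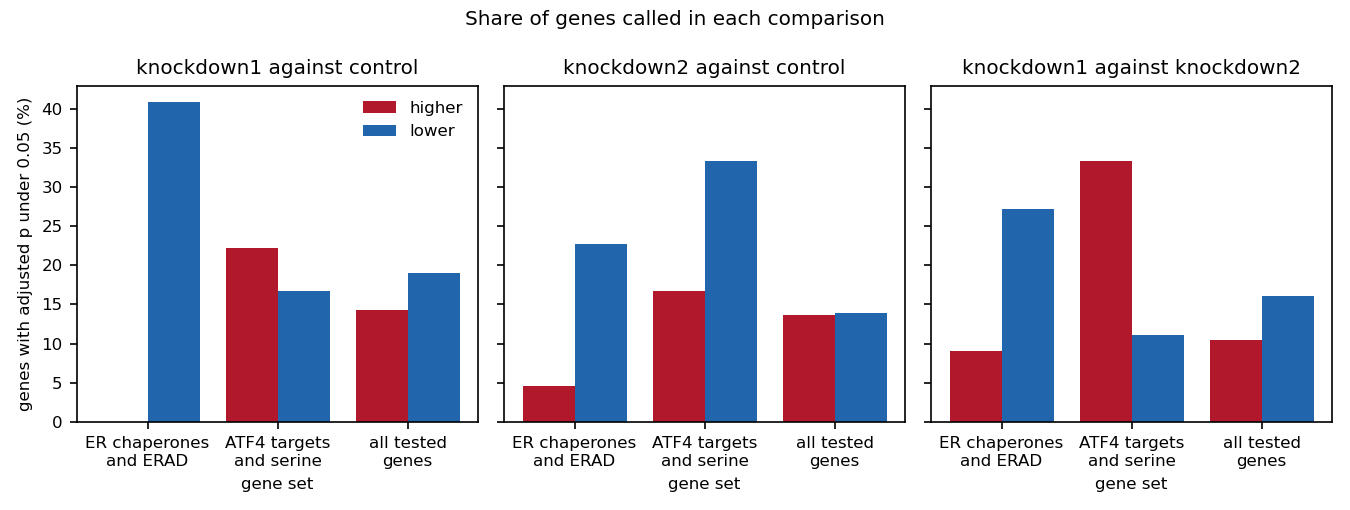
Share of tested genes (vertical axis, percent) called higher (red bars) or lower (blue bars) at adjusted p under 0.05, for the ER arm (22 tested), the ATF4 and serine arm (18 tested) and all 13056 tested genes in each comparison. In knockdown1 against control the ER arm has 0 genes higher and 9 lower, and the ATF4 and serine arm 4 higher and 3 lower.

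The messenger RNA of ATF4 itself was lower in knockdown2. Its signal was 3348, 2842 and 3397 in knockdown1 arrays, 2661, 2363 and 2558 in knockdown2 arrays and 3704, 2595 and 3874 in control arrays. After scaling, control replicate 2 lay within the range of the knockdown2 arrays, and the other control arrays lay above both knockdowns. This overlap depends on the scaling factors, 0.904 for control replicate 2 and 1.04 to 1.05 for the knockdown2 arrays. The difference from control was -0.07 ± 0.14 (adjusted p = 0.757) for knockdown1 and -0.40 ± 0.14 (adjusted p = 0.0322) for knockdown2. The knockdown2 call ended without knockdown2 replicate 1, 2 or 3 (-0.44, -0.36 and -0.41, adjusted p = 0.0522, 0.131 and 0.0744) and without control replicate 1 (-0.33, adjusted p = 0.172).

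PHGDH and PSPH, which open and close the synthesis of serine, fell in both knockdowns. PHGDH, the dehydrogenase that draws its substrate from glycolysis, had signals of 309, 292 and 343 in knockdown1 arrays, 210.2, 205 and 217 in knockdown2 arrays and 919.8, 726 and 925 in control arrays. The 3 groups did not overlap, with knockdown2 lowest and control highest. PHGDH differed from control by -1.43 ± 0.15 (adjusted p = 7.49e-09) in knockdown1 and by -2.01 ± 0.15 (adjusted p = 2.6e-11) in knockdown2. PSPH, the phosphatase of the last step to serine, had signals of 744, 679 and 661 in knockdown1 arrays, 562, 616 and 532 in knockdown2 arrays and 845, 832 and 1210.4 in control arrays. No knockdown array reached the lowest control array, control replicate 3 stood above the other control arrays, and PSPH differed from control by -0.45 ± 0.15 (adjusted p = 0.0203) in knockdown1 and -0.74 ± 0.15 (adjusted p = 0.000405) in knockdown2. The knockdown1 call ended without knockdown1 replicate 2 or 3 (-0.43 and -0.42, adjusted p = 0.0566 and 0.06) and without control replicate 3 (-0.27, adjusted p = 0.0525). PSAT1, the transaminase between these enzymes, ranged from 3739 to 4023 in knockdown1, from 3270.0 to 3530.5 in knockdown2 and from 3354 to 4259 in control arrays. Its differences from control were 0.01 (adjusted p = 0.944) and -0.17 (adjusted p = 0.327). Neither difference of PSAT1 passed the threshold.

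Serine feeds one-carbon metabolism in mitochondria through SHMT2 and MTHFD2. SHMT2 splits serine into glycine and a one-carbon unit. It differed from control by -0.34 ± 0.14 (adjusted p = 0.0506) in knockdown1 and -0.35 ± 0.14 (adjusted p = 0.0524) in knockdown2. Neither difference of SHMT2 passed the threshold in this fit. Both passed it, as lower values, with the values as deposited, with quantile normalization and with centring on the tested genes. Both also passed with a stricter filter and with a replicate block. Neither passed with no filter, without a variance trend or with only the groups compared. MTHFD2, the dehydrogenase that acts next, differed by 0.38 ± 0.16 (adjusted p = 0.0613) in knockdown1 and 0.42 ± 0.16 (adjusted p = 0.0441) in knockdown2. The knockdown2 call of MTHFD2 ended without knockdown1 replicate 1 (0.42, adjusted p = 0.0534), knockdown2 replicate 1 or 2 (0.36 and 0.39, adjusted p = 0.157 and 0.131) and control replicate 1 or 2 (0.42 and 0.22, adjusted p = 0.108 and 0.271). A dimmer probe set of MTHFD2 differed by -1.09 from control in knockdown1 (adjusted p = 2.96e-05 in a fit over all probe sets), so its probe sets disagree.

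The messenger RNA of ASNS moved in opposite directions in the knockdowns. ASNS, which makes asparagine from aspartate and is a classical ATF4 target, had signals of 1718, 1481 and 1724 in knockdown1 arrays, 934, 762 and 787 in knockdown2 arrays and 1289.7, 1022 and 1234 in control arrays. The 3 groups did not overlap, with control between the knockdowns. ASNS was higher than control by 0.48 ± 0.14 (adjusted p = 0.00824) in knockdown1 and differed by -0.51 ± 0.14 (adjusted p = 0.00588) in knockdown2. The knockdown2 call ended without knockdown2 replicate 2 (-0.46, adjusted p = 0.0504) and without control replicate 1 (-0.45, adjusted p = 0.055).

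Promoters of ASNS and PHGDH are shown because ASNS was called in opposite directions in the knockdowns and PHGDH in the same direction. They are RefSeq sequence of build GRCh38.p14, the 250 bases before an annotated start, in the direction of the gene. ASNS has 2 such windows, of which the one with the most motif matches is shown, and PHGDH has 1. ASNS lies at chr7:97872409-97872658 on the minus strand and PHGDH at chr1:119711684-119711933 on the plus strand. Capitals mark the CARE, the composite element bound by ATF4 with a C/EBP partner, searched as TGATGNAAN on both strands.
ASNS: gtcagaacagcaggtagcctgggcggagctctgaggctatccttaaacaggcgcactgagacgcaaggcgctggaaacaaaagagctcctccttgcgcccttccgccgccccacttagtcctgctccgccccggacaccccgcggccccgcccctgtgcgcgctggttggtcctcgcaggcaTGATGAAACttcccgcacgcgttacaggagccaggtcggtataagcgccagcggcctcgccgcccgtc
PHGDH: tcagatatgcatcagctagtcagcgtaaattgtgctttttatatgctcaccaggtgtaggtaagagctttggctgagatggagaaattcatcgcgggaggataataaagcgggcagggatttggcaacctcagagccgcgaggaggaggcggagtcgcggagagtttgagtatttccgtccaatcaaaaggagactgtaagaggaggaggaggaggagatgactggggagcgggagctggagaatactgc
The element in the ASNS window shown starts 68 bases before that annotated start, and these letters are not in the PHGDH window.

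Windows of 250 bases before to 50 after a start were found for 38 members, 54 windows in all, and a gene was counted where any of its windows held the letters. CARE letters were found for 5 of 16 members of the ATF4 and serine arm (31.2%), for 1 of 22 of the ER arm (4.55%) and for 1215 of 27305 genes with a window (4.45%). The sites are shown with 8 flanking bases, 5′ to 3′ on the strand that carries the element in capitals, because they are the letters shared by these members.
ASNS: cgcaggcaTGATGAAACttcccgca
CEBPG: gcggcgtcTGATGCAACctgccggc
AARS1: aacttggcTGATGCAACtgcgagaa
GARS1: tcggagcaTGATGAAATcgccgcgt
CHAC1: ggcaggagTGATGCAACggcagggg
HERPUD1: gcacgggcTGATGCAACccgccgcg
They lie at chr7:97872460-97872484 for ASNS, chr19:33374063-33374087 for CEBPG, chr16:70289678-70289702 for AARS1, chr7:30594836-30594860 for GARS1, chr15:40953253-40953277 for CHAC1 and chr16:56931957-56931981 for HERPUD1. The 4 tested members of the ATF4 and serine arm with the element had a median difference from control of 0.12 in knockdown1, with a range of -0.82 to 0.48, and of -0.38 in knockdown2, with a range of -0.51 to -0.07. The 11 tested members with a window but without the letters had medians of 0.02 and 0.06. A match of letters is a description and does not show a bound site.

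Aminoacyl-tRNA synthetases, which charge transfer RNAs with amino acids, gave 1 call among the 4 members against control. SARS1, the synthetase for serine, had signals of 1816, 1489.6 and 1732 in knockdown1 arrays, 1265, 1179.5 and 1146 in knockdown2 arrays and 1129, 1115 and 1187 in control arrays. Knockdown1 arrays lay above all others, while knockdown2 and control arrays overlapped. SARS1 rose by 0.55 ± 0.13 (adjusted p = 0.00141) in knockdown1 and its difference in knockdown2 was 0.06 ± 0.13 (adjusted p = 0.771). With the mean of its probe sets the knockdown1 difference was 0.30 and no longer called (adjusted p = 0.0729). The synthetases for alanine (AARS1), glycine (GARS1) and tryptophan (WARS1) differed from control by 0.18, 0.05 and 0.07 in knockdown1. In knockdown2 they differed by -0.26, -0.07 and -0.16, and adjusted p was 0.187 or more in both knockdowns. With the values as deposited and with quantile normalization, AARS1 was called higher in knockdown1 and lower in knockdown2.

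TRIB3 and PPP1R15A rose in both knockdowns. TRIB3, a pseudokinase that ATF4 and DDIT3 switch on and that restrains ATF4, had signals of 1927, 1404 and 1534 in knockdown1 arrays, 1418, 1108 and 1051 in knockdown2 arrays and 839, 745 and 984 in control arrays. All 6 knockdown arrays lay above the 3 control arrays, and knockdown1 and knockdown2 overlapped. TRIB3 rose by 0.92 ± 0.15 (adjusted p = 2.14e-05) in knockdown1 and by 0.47 ± 0.15 (adjusted p = 0.019) in knockdown2. The knockdown2 call ended without knockdown2 replicate 1 (0.34, adjusted p = 0.168) and without control replicate 1 or 2 (0.46 and 0.38, adjusted p = 0.0647 and 0.0715). PPP1R15A (GADD34), the phosphatase subunit that removes phosphate from eIF2alpha, had signals of 120.2, 118 and 131 in knockdown1 arrays, 182, 155 and 195 in knockdown2 arrays and 80.7, 83.7 and 78.2 in control arrays. The 3 groups did not overlap, with knockdown2 highest and control lowest, and the gene rose by 0.60 ± 0.16 (adjusted p = 0.00354) in knockdown1 and 1.12 ± 0.16 (adjusted p = 2.88e-06) in knockdown2.

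Of the transcription factors downstream of ATF4, none was called higher in either knockdown. DDIT3 (CHOP), the factor tied to cell death under prolonged ER stress, had signals of 128, 113 and 136 in knockdown1 arrays, 143, 128 and 159.5 in knockdown2 arrays and 167, 149 and 139 in control arrays. Knockdown1 arrays lay just below the control arrays and knockdown2 overlapped them, with differences of -0.27 ± 0.16 (adjusted p = 0.197) and -0.08 ± 0.16 (adjusted p = 0.755). CEBPG, a C/EBP partner of ATF4, had signals of 202, 147 and 183 in knockdown1 arrays, 251, 187 and 227 in knockdown2 arrays and 362, 240.4 and 346 in control arrays. After scaling, control replicate 2 was the lowest control array and lay below knockdown2 replicate 1, while all knockdown1 arrays lay below the controls. CEBPG fell in knockdown1 (difference -0.82 ± 0.17 (adjusted p = 0.000446)) and differed by -0.50 ± 0.17 (adjusted p = 0.0313) in knockdown2. The knockdown2 call ended without knockdown2 replicate 2 or 3 (-0.38 and -0.52, adjusted p = 0.179 and 0.0587) and without control replicate 1 (-0.39, adjusted p = 0.173). It also ended with the mean of probe sets (-0.36, adjusted p = 0.103). A dimmer probe set of CEBPG differed by -1.02 in knockdown1 and -0.22 in knockdown2 (adjusted p = 3.38e-05 and 0.34 in a fit over all probe sets). CEBPB, another C/EBP factor, differed by -0.23 (adjusted p = 0.205) in knockdown1 and 0.19 (adjusted p = 0.33) in knockdown2.

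NUPR1, a small nuclear protein induced by stress through ATF4, had signals of 351, 289.6 and 369 in knockdown1 arrays, 279.7, 213 and 237 in knockdown2 arrays and 443, 343 and 393 in control arrays. Knockdown2 arrays lay below all others. NUPR1 fell in knockdown2 (difference -0.69 ± 0.16 (adjusted p = 0.00115)), while its difference in knockdown1 was -0.22 ± 0.16 (adjusted p = 0.296). SESN2, which restrains mTORC1 when leucine is short, differed by 0.02 (adjusted p = 0.942) in knockdown1 and 0.31 (adjusted p = 0.199) in knockdown2. The members of this arm called higher were ASNS, TRIB3, PPP1R15A and SARS1 in knockdown1, and TRIB3, PPP1R15A and MTHFD2 in knockdown2.

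**Figure D2:**
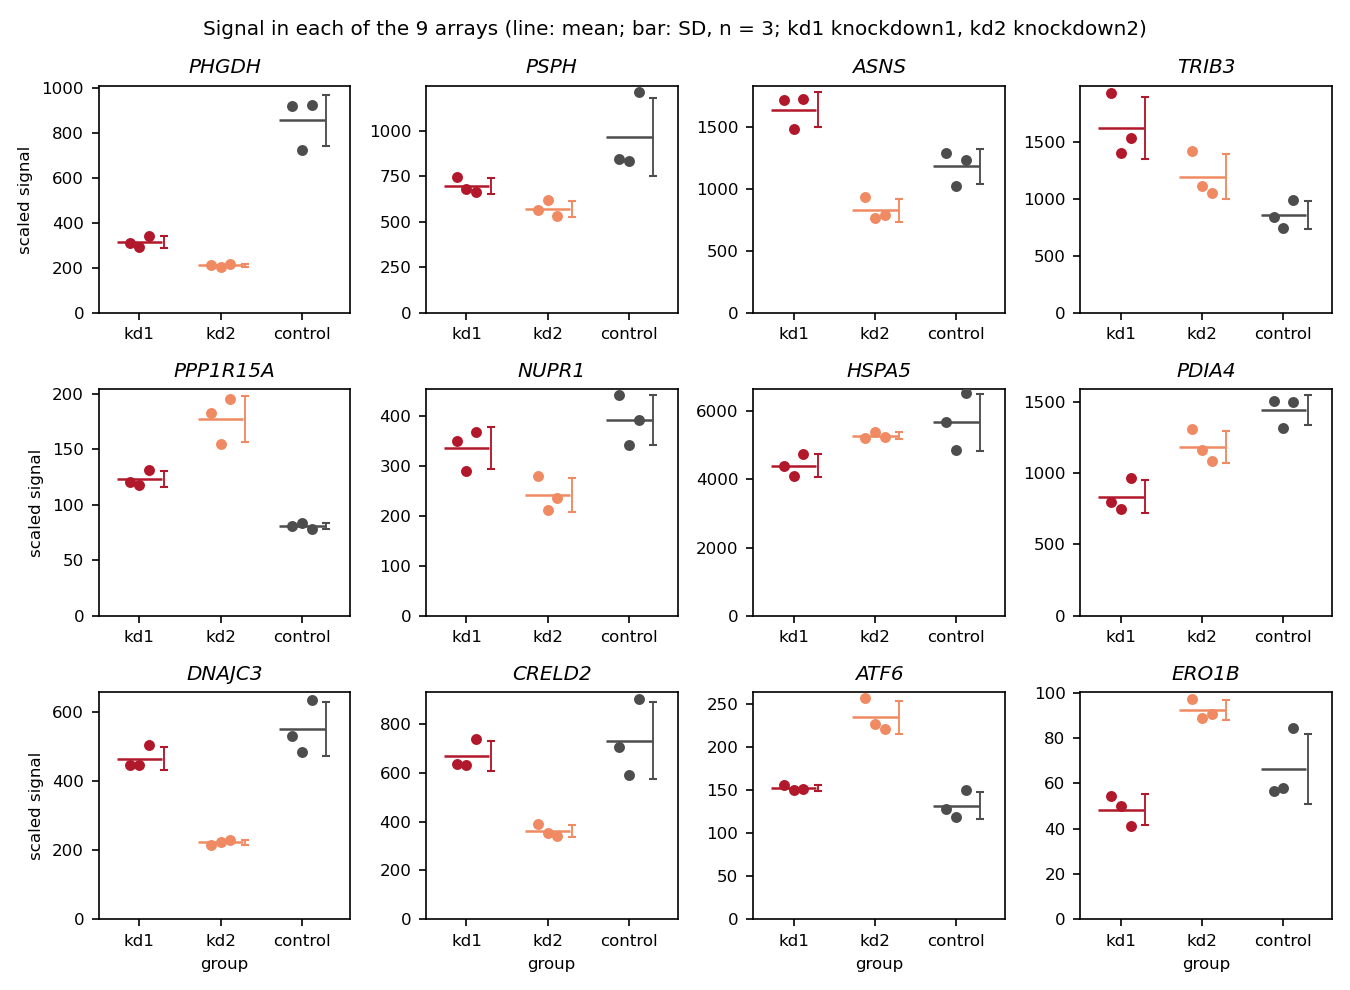
Scaled signal (linear axis from 0, brightness units) of 12 members in each of the 9 arrays, as 1 point per array, with knockdown1 left, knockdown2 in the middle and control right, a line at the group mean and a bar of 1 SD (n = 3). PHGDH lies lower in both knockdowns and PPP1R15A higher, while ASNS lies above control in knockdown1 and below it in knockdown2.

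In the ER arm the genes called in knockdown1 were all lower than in control. Of its 22 tested genes 0 were higher and 9 were lower, 40.9% against the 33.3% called among all tested genes, and the median difference was -0.35 against -0.01. The 9 genes were HSPA5, HSP90B1, DNAJB9, CREB3L3, EDEM1, SDF2L1, PDIA4, CANX and MANF, and CREB3L3 among them is above the brightness filter in control arrays only. In knockdown2, 1 gene was higher and 5 were lower, 27.3% against 27.6% among all tested genes, and the median difference was -0.13 against 0.01. Over the alternative settings and left-out arrays the median of the arm stayed between -0.39 and -0.20 in knockdown1 and between -0.20 and -0.09 in knockdown2. The count in knockdown1 was 2 without control replicate 1 and 4 without knockdown1 replicate 2, and that in knockdown2 was 10 without control replicate 3. With arrays centred on their tested genes, 2 were higher and 10 lower in knockdown1, and 3 higher and 7 lower in knockdown2.

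**Figure D3:**
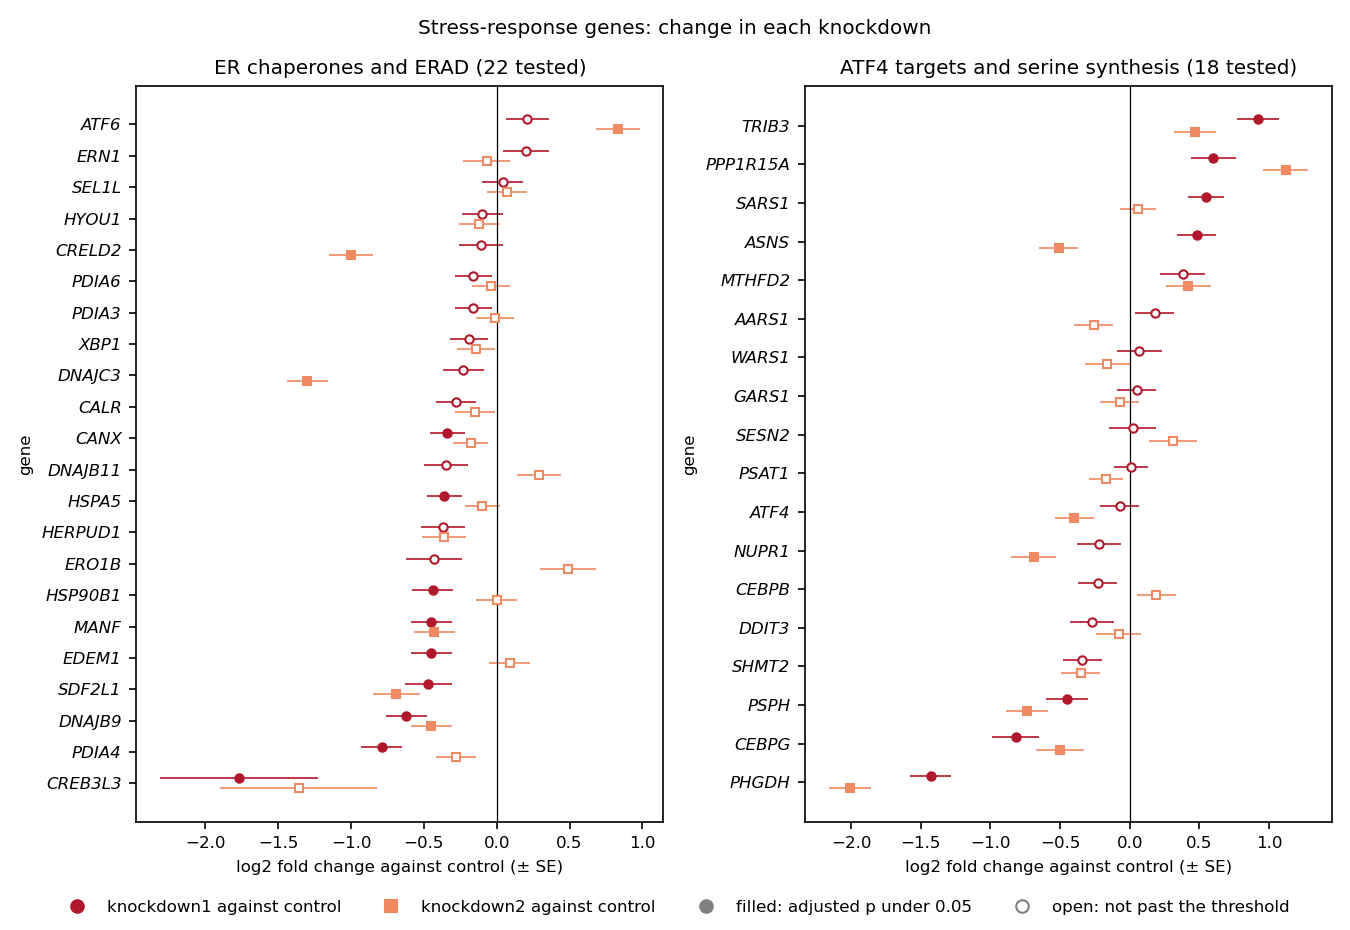
Log2 difference of each tested member from control in knockdown1 and in knockdown2, with bars of 1 SE, filled points for adjusted p under 0.05 and open points otherwise, members grouped by arm. CREB3L3 lies lowest in knockdown1 at -1.77 and PHGDH lies lowest in knockdown2 at -2.01, and most ER members lie below 0 in knockdown1.

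Of ERN1, XBP1 and ATF6, the last was called, in knockdown2. ERN1, the kinase and ribonuclease that splices XBP1, had signals of 289, 238 and 265 in knockdown1 arrays, 244, 199.8 and 213 in knockdown2 arrays and 247, 179 and 270.3 in control arrays. The groups overlapped, with differences of 0.20 ± 0.16 (adjusted p = 0.371) and -0.07 ± 0.16 (adjusted p = 0.813). XBP1 had signals of 1912, 2188 and 2336 in knockdown1 arrays, 2226, 2259.5 and 2187 in knockdown2 arrays and 2501, 2100.4 and 2782 in control arrays. These groups overlapped too, with differences of -0.19 ± 0.13 (adjusted p = 0.282) and -0.14 ± 0.13 (adjusted p = 0.498). ATF6, which is cut free in the Golgi and then induces chaperones, had signals of 156, 149.6 and 152 in knockdown1 arrays, 256, 226 and 221 in knockdown2 arrays and 128, 118 and 149.7 in control arrays. Knockdown2 arrays lay above all others, and ATF6 differed by 0.21 ± 0.15 (adjusted p = 0.31) in knockdown1 and 0.83 ± 0.15 (adjusted p = 0.000121) in knockdown2. Without knockdown2 replicate 1 another probe set became the brightest, and the difference was 0.24 (adjusted p = 0.51), while the mean of its probe sets gave 0.51 (adjusted p = 0.0131). In a fit over all probe sets, the other probe sets of ATF6 differed from control by -0.30, 0.58 and 0.93 in knockdown2 (adjusted p = 0.557, 0.24 and 0.00135).

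CREB3L3 (CREBH) is a transcription factor of liver and intestine that is anchored in the ER and regulates lipid and acute-phase genes. Its signals were 10.4, 11.1 and 2.40 in knockdown1 arrays, 7.78, 10.1 and 11.3 in knockdown2 arrays and 19.0, 23.0 and 43.8 in control arrays. All knockdown signals lay below the common median of 14.1, so the gene entered the test only through the control arrays. The difference was -1.77 ± 0.54 (adjusted p = 0.011) in knockdown1 and -1.36 ± 0.54 (adjusted p = 0.0597) in knockdown2. The knockdown1 call ended without knockdown1 replicate 3 (-1.21, adjusted p = 0.0653), and the gene was not tested when any control array was left out. With a pseudocount of 14.1 the knockdown1 difference was -0.93 (adjusted p = 0.00438).

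HSPA5 and HSP90B1, general chaperones of the ER, fell in knockdown1. HSPA5 had signals of 4385, 4081 and 4736 in knockdown1 arrays, 5207, 5388 and 5220.1 in knockdown2 arrays and 5661, 4843 and 6511 in control arrays. All knockdown1 arrays lay below the others, and knockdown2 and control arrays overlapped. HSPA5 differed by -0.36 ± 0.12 (adjusted p = 0.0253) in knockdown1 and -0.10 ± 0.12 (adjusted p = 0.63) in knockdown2. The knockdown1 call ended without knockdown1 replicate 1 or 2 (-0.36 and -0.31, adjusted p = 0.0649 and 0.107) and without control replicate 1 (-0.35, adjusted p = 0.081). It also ended with no filter, without a variance trend in the fit and with only the groups compared (adjusted p = 0.129, 0.0877 and 0.0674). A dimmer probe set of HSPA5 averaged 56.1 in knockdown1, 86.2 in knockdown2 and 175 in control arrays, with differences of -1.62 and -1.03 (adjusted p = 1.74e-07 and 7.79e-05 in a fit over all probe sets). The knockdown1 difference was -0.99 with the mean of both probe sets and -0.22 with quantile normalization, both called (adjusted p = 6.02e-06 and 0.00401). HSP90B1 (GRP94), the ER chaperone of the HSP90 family, differed by -0.44 ± 0.14 (adjusted p = 0.0126) in knockdown1 and 0.00 ± 0.14 (adjusted p = 0.988) in knockdown2. Its knockdown1 call ended without knockdown1 replicate 2 (-0.36, adjusted p = 0.0773) and without control replicate 1 (-0.41, adjusted p = 0.0643). The call also ended with the mean of probe sets (-0.37, adjusted p = 0.0755) and without a variance trend in the fit (-0.44, adjusted p = 0.0573).

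Co-chaperones with a J domain drive the ATPase of BiP. DNAJB9 (ERdj4) had signals of 977, 951 and 1084 in knockdown1 arrays, 1109, 1156 and 1135 in knockdown2 arrays and 1638, 1243 and 1808 in control arrays. All knockdown arrays lay below the control arrays, with differences of -0.62 ± 0.14 (adjusted p = 0.000953) and -0.45 ± 0.14 (adjusted p = 0.0181). The knockdown2 call of DNAJB9 ended without knockdown2 replicate 1, 2 or 3 (-0.43, -0.46 and -0.45, adjusted p = 0.0709, 0.0536 and 0.0605) and without control replicate 1 (-0.40, adjusted p = 0.095). DNAJC3 (p58IPK), which also inhibits eIF2alpha kinases, had signals of 445, 446 and 503 in knockdown1 arrays, 213, 223 and 229 in knockdown2 arrays and 531, 483 and 635 in control arrays. Knockdown2 arrays were far below all others, with differences of -0.23 ± 0.14 (adjusted p = 0.232) in knockdown1 and -1.30 ± 0.14 (adjusted p = 7.79e-08) in knockdown2. With the mean of its probe sets the knockdown2 difference was -0.82 (adjusted p = 0.000776), and its dimmer probe sets differed by -1.18, -0.61 and -0.18 (adjusted p = 0.0125, 0.0502 and 0.604 in a fit over all probe sets). DNAJB11 (ERdj3), which is also secreted with its clients, had signals of 1569, 1779 and 2138 in knockdown1 arrays, 2716, 2702 and 3097 in knockdown2 arrays and 2673, 1786 and 2599.9 in control arrays. Control replicate 2 lay among the knockdown1 arrays, and the differences from control were -0.35 ± 0.15 (adjusted p = 0.072) and 0.29 ± 0.15 (adjusted p = 0.159). HYOU1, the nucleotide exchange factor of BiP, differed by -0.10 (adjusted p = 0.644) in knockdown1 and -0.12 (adjusted p = 0.579) in knockdown2.

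Of the oxidoreductases that form disulfide bonds, PDIA4 fell most in knockdown1. PDIA4 had signals of 794, 747 and 965 in knockdown1 arrays, 1306, 1161 and 1086 in knockdown2 arrays and 1505, 1319 and 1497 in control arrays. The 3 groups did not overlap, with knockdown1 lowest and control highest, and the differences were -0.79 ± 0.14 (adjusted p = 4.47e-05) and -0.28 ± 0.14 (adjusted p = 0.134). A dimmer probe set of PDIA4 differed by -0.86 in knockdown1 and -0.64 in knockdown2 (adjusted p = 0.000259 and 0.00475 in a fit over all probe sets). Between the knockdowns that probe set differed by -0.22 (adjusted p = 0.351). PDIA3, the isomerase that works with the lectin chaperones, differed by -0.16 and -0.01, and PDIA6 by -0.16 and -0.04, with adjusted p of 0.359 or more. ERO1B, the oxidase that recharges these isomerases, had signals of 54.2, 49.8 and 40.9 in knockdown1 arrays, 97.4, 89.1 and 90.5 in knockdown2 arrays and 56.5, 58.0 and 84.3 in control arrays. Its knockdown1 arrays lay below control and its knockdown2 arrays above, with differences of -0.43 ± 0.19 (adjusted p = 0.0862) and 0.49 ± 0.19 (adjusted p = 0.0549). A dimmer probe set of ERO1B differed by 0.21 in knockdown1 and 0.77 in knockdown2 (adjusted p = 0.551 and 0.0191 in a fit over all probe sets). The lectin chaperones hold glycoproteins while they fold, and CANX differed by -0.34 ± 0.12 (adjusted p = 0.0272) in knockdown1 and CALR by -0.28 ± 0.14 (adjusted p = 0.111). The CANX call ended without knockdown1 replicate 1 or 2 (-0.29 and -0.33, adjusted p = 0.134 and 0.0818), knockdown2 replicate 3 (-0.34, adjusted p = 0.0502) and control replicate 1 (-0.33, adjusted p = 0.0989), and with quantile normalization the difference was -0.19 (adjusted p = 0.00353). In knockdown2 CANX and CALR differed by -0.18 and -0.15 (adjusted p = 0.294 and 0.473). A dimmer probe set of CANX differed by -0.67 in knockdown1 and -1.11 in knockdown2 (adjusted p = 0.00204 and 1.71e-05 in a fit over all probe sets).

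Among ERAD genes, EDEM1, which takes misfolded glycoproteins out of the folding cycle, had signals of 311, 327 and 369 in knockdown1 arrays, 515, 484 and 464 in knockdown2 arrays and 457, 407 and 519 in control arrays. All knockdown1 arrays lay below the others, with differences of -0.45 ± 0.14 (adjusted p = 0.0152) in knockdown1 and 0.09 ± 0.14 (adjusted p = 0.718) in knockdown2. The call ended without knockdown1 replicate 1 (-0.40, adjusted p = 0.0791) and without control replicate 1 (-0.46, adjusted p = 0.0517). HERPUD1, which assembles the ERAD ligase complex, differed by -0.37 (adjusted p = 0.0506) in knockdown1 and -0.36 (adjusted p = 0.0686) in knockdown2. SEL1L, the scaffold of that complex, differed by 0.04 (adjusted p = 0.851) and 0.07 (adjusted p = 0.774).

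CRELD2, SDF2L1 and MANF were lower in knockdown2. CRELD2, an ER protein with EGF-like domains, had signals of 635, 632 and 739.7 in knockdown1 arrays, 389.7, 351 and 341 in knockdown2 arrays and 704, 589 and 901 in control arrays. Knockdown2 arrays lay far below all others, and knockdown1 overlapped control, with differences of -0.11 ± 0.15 (adjusted p = 0.63) in knockdown1 and -1.0 ± 0.15 (adjusted p = 1.09e-05) in knockdown2. SDF2L1, a partner of ERdj3 that keeps proteins soluble, had signals of 605, 490.3 and 564 in knockdown1 arrays, 507, 429 and 485 in knockdown2 arrays and 836, 588 and 902 in control arrays. After scaling, control replicate 2 lay within the knockdown1 range and above all knockdown2 arrays, and the differences were -0.47 ± 0.16 (adjusted p = 0.0217) and -0.69 ± 0.16 (adjusted p = 0.00131). The knockdown1 call of SDF2L1 ended without knockdown1 replicate 2 (-0.38, adjusted p = 0.104) and without control replicate 1 (-0.40, adjusted p = 0.111). MANF, a secreted factor held in the ER by BiP, differed by -0.45 ± 0.14 (adjusted p = 0.016) in knockdown1 and -0.43 ± 0.14 (adjusted p = 0.0252) in knockdown2. Its calls ended without control replicate 1 (-0.44 and -0.42, adjusted p = 0.0643 and 0.0931), in knockdown1 also without knockdown1 replicate 2 (-0.34, adjusted p = 0.116) and in knockdown2 without knockdown2 replicate 2 or 3 (-0.37 and -0.40, adjusted p = 0.134 and 0.103).

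Promoters of HSPA5 and CRELD2 are shown because both hold the ER stress response element (ERSE), the joint site of NF-Y and ATF6, and HSPA5 was called lower in knockdown1 and CRELD2 in knockdown2. The RefSeq windows of build GRCh38.p14 are the 250 bases before the start, in the direction of the gene, at chr9:125241344-125241593 on the minus strand for HSPA5 and chr22:49918384-49918633 on the plus strand for CRELD2. Capitals mark the element, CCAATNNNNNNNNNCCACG or its reverse complement.
HSPA5: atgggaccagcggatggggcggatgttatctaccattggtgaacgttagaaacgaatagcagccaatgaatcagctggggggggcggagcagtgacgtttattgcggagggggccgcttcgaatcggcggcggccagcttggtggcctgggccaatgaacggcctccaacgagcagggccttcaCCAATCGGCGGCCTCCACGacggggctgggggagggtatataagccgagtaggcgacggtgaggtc
CRELD2: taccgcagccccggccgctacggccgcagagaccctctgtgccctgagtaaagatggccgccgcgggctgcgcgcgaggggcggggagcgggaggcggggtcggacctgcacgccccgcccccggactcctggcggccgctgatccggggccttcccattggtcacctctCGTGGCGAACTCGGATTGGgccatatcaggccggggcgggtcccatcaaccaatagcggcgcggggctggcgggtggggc
The element begins 66 bases before the start of HSPA5 on the strand of the gene, and 80 bases before the start of CRELD2 on the opposite strand.

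ERSE letters were in the windows of 8 of 22 members of the ER arm (36.4%), in 0 of 16 of the ATF4 and serine arm and in 25 of 27305 genes with a window (0.0916%), a number that includes the members. The sites are shown with 5 flanking bases, on the strand that carries the element, so that the spacer between its fixed ends can be compared.
HSPA5: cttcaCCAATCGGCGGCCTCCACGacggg
HSP90B1: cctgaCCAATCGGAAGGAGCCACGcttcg
HSP90B1, nearer the start: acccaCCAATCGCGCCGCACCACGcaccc
XBP1: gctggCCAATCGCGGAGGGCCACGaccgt
PDIA6: ccggaCCAATGAGCCGCAGCCACGgcttg
CALR: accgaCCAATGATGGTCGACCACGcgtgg
CANX: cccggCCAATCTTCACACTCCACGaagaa
CRELD2: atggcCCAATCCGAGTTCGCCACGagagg
ERO1B: ggcggCCAATGAGGCGGGACCACGcgggc
The other sites lie at chr12:103930211-103930239 and chr12:103930316-103930344 for HSP90B1, chr22:28800598-28800626 for XBP1, chr2:10812848-10812876 for PDIA6, chr19:12938379-12938407 for CALR, chr5:179698773-179698801 for CANX and chr1:236282178-236282206 for ERO1B. In knockdown1 the 8 members with the element had a median difference of -0.31, from -0.44 to -0.11, and 3 of them were called lower. The 13 tested members of the arm with a window but without these letters had a median of -0.37, from -1.77 to 0.21, and 6 were called lower. In knockdown2 the medians were -0.12 with the element and -0.28 without. The shorter element TGACGTGG (UPRE, a site of XBP1 and ATF6), searched on both strands, was in the window of HYOU1 and of 253 of 27305 genes (0.927%). The letters CAAAGTCCA, a consensus element of HNF4 searched on both strands, were in 0 of the 38 members' windows and in 129 of 27305 (0.472%). A search of these letters alone says nothing of binding outside the window or to other letters.

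Set against each other, the knockdowns differed in both arms. In knockdown1 against knockdown2, 6 genes of the ATF4 and serine arm were higher and 2 lower (44.4% called), with a median of 0.21. In the ER arm 2 were higher and 6 lower (36.4% called), with a median of -0.15. Over all tested genes 26.6% were called, 10.5% higher and 16.1% lower, with a median of -0.03. With quantile normalization the ER arm had 4 genes higher and 6 lower and a median of 0.04. With the values as deposited, 2803 of all tested genes were higher and 2104 lower, in place of 1368 and 2105 after scaling. The ATF4 and serine count of 8 became 13 without control replicate 3, 5 without knockdown1 replicate 1, 4 without knockdown2 replicate 2 and 3 without knockdown2 replicate 3, and the ER count of 8 became 5 without knockdown2 replicate 1.

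ASNS and PHGDH were higher in knockdown1 than in knockdown2, by 0.99 ± 0.14 (adjusted p = 2.82e-06) and 0.57 ± 0.15 (adjusted p = 0.00353), and no array overlapped. SARS1 was higher in knockdown1 by 0.48 ± 0.13 (adjusted p = 0.00563). DNAJC3 and CRELD2 were higher in knockdown1 by 1.06 ± 0.14 (adjusted p = 1.95e-06) and 0.89 ± 0.15 (adjusted p = 5.41e-05), again with no overlap. ERO1B, DNAJB11 and EDEM1 were lower in knockdown1 than in knockdown2, by differences of -0.92 ± 0.19 (adjusted p = 0.000503), -0.64 ± 0.15 (adjusted p = 0.00167) and -0.54 ± 0.14 (adjusted p = 0.00544). All 8 of these calls stayed past the threshold under each alternative setting and with each array left out. PDIA4 and ATF6 were lower in knockdown1 by differences of -0.51 ± 0.14 (adjusted p = 0.00635) and -0.61 ± 0.15 (adjusted p = 0.00282), and both calls ended without knockdown2 replicate 1 (-0.44 and -0.09, adjusted p = 0.0625 and 0.838) and with the mean of probe sets (-0.37 and -0.27, adjusted p = 0.0595 and 0.187). The other calls were PPP1R15A, CEBPB and HSP90B1, lower in knockdown1 (-0.52, -0.43 and -0.45), and NUPR1, TRIB3 and AARS1, higher (0.47, 0.44 and 0.44), with adjusted p of 0.0133 to 0.03. Each of these 6 calls ended when certain arrays were left out. For PPP1R15A these were knockdown1 replicate 2 and knockdown2 replicates 1 and 3 (adjusted p up to 0.0928), for HSP90B1 knockdown1 replicate 2 and knockdown2 replicate 1 (up to 0.0965), and for CEBPB knockdown1 replicate 2 and each knockdown2 array (up to 0.127). For TRIB3 they were knockdown1 replicate 1 and knockdown2 replicates 2 and 3 (up to 0.214), and for NUPR1 and AARS1 knockdown1 replicates 1 and 3 and knockdown2 replicates 2 and 3 (up to 0.157 and 0.144). With the mean of probe sets the calls of PPP1R15A and HSP90B1 ended as well (-0.40 and -0.37, adjusted p = 0.0527 and 0.0906), and with quantile normalization CEBPB and HSP90B1 differed by -0.27 and -0.29 (adjusted p = 0.0297 and 0.00469).

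**Figure D4:**
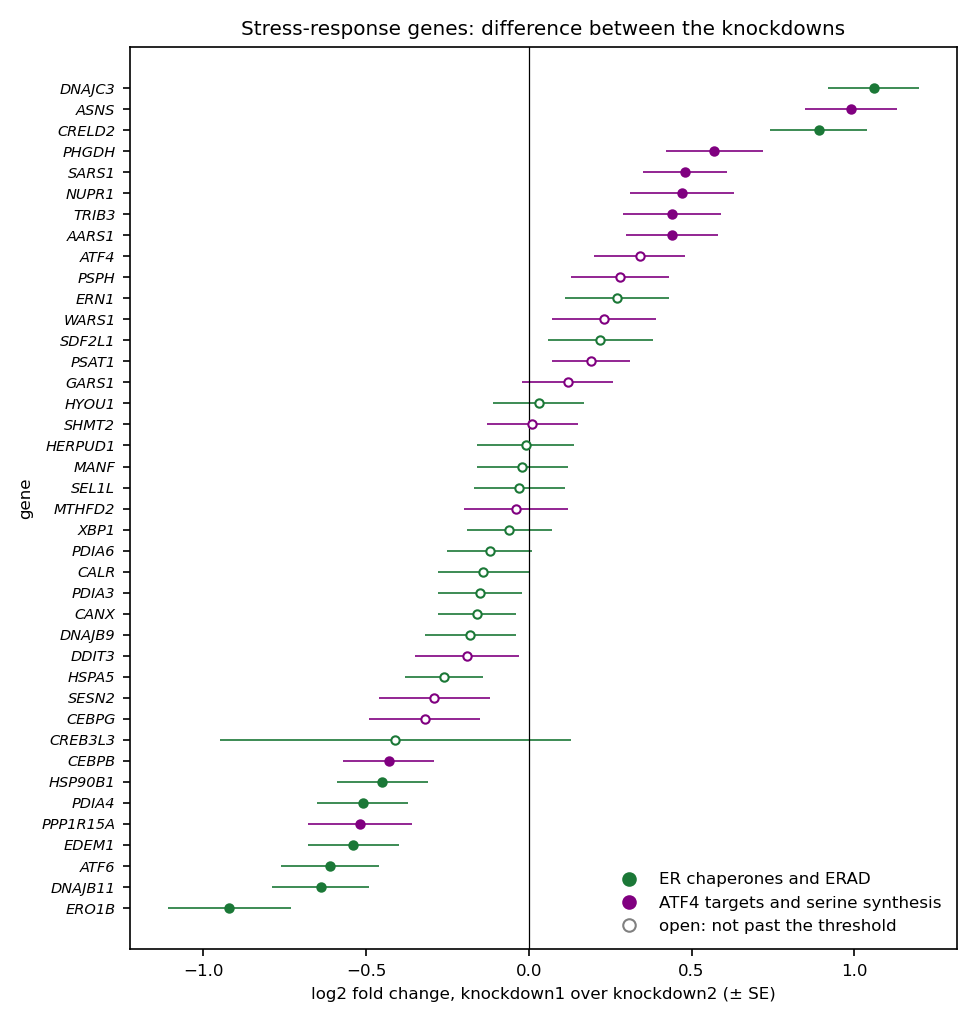
Log2 difference of each tested member between knockdown1 and knockdown2, with bars of 1 SE, filled points for adjusted p under 0.05, members sorted by value and coloured by arm. DNAJC3 at 1.06 and ASNS at 0.99 lie highest, and ERO1B at -0.92 lies lowest.

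The upstream kinases and other genes of the pathway were examined as lists of their own, and their called shares stand against 33.3% of all tested genes in knockdown1 and 27.6% in knockdown2. Of 11 eIF2alpha kinases and stress sensors outside the members, 2 were higher and 5 lower in knockdown1 (63.6% called), and 2 higher and 3 lower in knockdown2 (45.5%). EIF2AK3 (PERK), the ER kinase of eIF2alpha, differed by 0.11 (adjusted p = 0.617) in knockdown1 and -0.55 (adjusted p = 0.00707) in knockdown2. MBTPS1 and MBTPS2, the proteases that cut ATF6, moved in opposite directions. MBTPS1 rose by 0.97 in knockdown1 and 0.38 in knockdown2 (adjusted p = 4.41e-06 and 0.0477), and MBTPS2 had differences of -0.97 and -0.55 (adjusted p = 1.25e-05 and 0.00829). PPP1R15B, the constitutive counterpart of PPP1R15A, rose by 0.72 and 0.69 (adjusted p = 0.000197 and 0.00042).

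Of 26 further tested ATF4 pathway genes, 7 were higher and 7 lower in knockdown1 (53.8% called), and 5 higher and 7 lower in knockdown2 (46.2%). GDF15, a stress hormone, rose by 0.85 in knockdown1 and 1.14 in knockdown2 (adjusted p = 3.98e-06 and 5.8e-08), and VLDLR, a lipoprotein receptor, fell (differences -1.46 and -1.43, adjusted p = 4.63e-08 and 1.12e-07). PYCR1, an enzyme of proline synthesis, rose by 0.74 (adjusted p = 0.000191) in knockdown1, and SLC1A4, an amino acid transporter, fell in both (differences -0.75 and -0.87, adjusted p = 0.000285 and 6.67e-05). The genes called lower include SLC6A9 in knockdown1 and ADM2 in knockdown2, whose mean signals there, 8.13 and 6.15, lay under the common median of 14.1. Of 13 other tested cytosolic aminoacyl-tRNA synthetases, 1 was higher and 0 lower in knockdown1, and 0 higher and 1 lower in knockdown2 (7.69% called in each). They were HARS1, the synthetase for histidine (0.79 (adjusted p = 0.000119)), in knockdown1 and RARS1, the synthetase for arginine (-1.20 (adjusted p = 1.07e-07)), in knockdown2.

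Of 8 other tested serine and one-carbon enzymes, 1 was higher and 4 lower in knockdown1 (62.5% called), and 1 higher and 2 lower in knockdown2 (37.5%). MTHFD2L, a relative of MTHFD2, rose by 1.72 in knockdown1 and 0.75 in knockdown2 (adjusted p = 1.22e-09 and 0.000567). AMT, of the glycine cleavage system, fell in both (differences -0.71 and -0.97, adjusted p = 0.000505 and 1.41e-05), and TYMS, which makes thymidylate, fell in knockdown1 (difference -1.88 (adjusted p = 2.57e-10)) but differed by -0.23 (adjusted p = 0.33) in knockdown2.

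In the rest of the ER machinery the called shares lay on both sides of those of all tested genes, 33.3% in knockdown1 and 27.6% in knockdown2. Of 19 other tested ER folding and redox genes, 9 were higher and 3 lower in knockdown1 (63.2% called), and 3 higher and 1 lower in knockdown2 (21.1%). PRDX4, the peroxidase of the ER, rose by 0.84 and 0.89 (adjusted p = 1.87e-05 and 1.2e-05), and FKBP14, a prolyl isomerase, rose by 1.34 (adjusted p = 6.99e-07) in knockdown1. Of 16 other tested ERAD genes, 2 were higher and 1 lower in knockdown1 (18.8% called), and 2 higher and 4 lower in knockdown2 (37.5%), among them DERL2, a channel component, which fell in knockdown2 (difference -1.37 (adjusted p = 2.78e-07)). Of 25 tested genes of translocation into the ER and exit from it, 0 were higher and 7 lower in knockdown1 (28% called), and 0 higher and 6 lower in knockdown2 (24%). Both lay under the shares of all tested genes called in either direction. All these calls were lower, and of all tested genes 19.0% were called lower in knockdown1 and 13.9% in knockdown2, both under the shares of this list. SSR1, of the translocon, and SEC13 and SEC23B, coat proteins of vesicles that leave the ER, fell in knockdown1 (differences -1.53, -1.37 and -1.34, adjusted p = 1.67e-10, 3.99e-08 and 4.18e-07). In knockdown2 these 3 genes differed by -0.10, -0.25 and -0.11 (adjusted p = 0.627, 0.242 and 0.692).

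Stress chaperones of other compartments were examined as well. Of 12 tested cytosolic heat shock genes, 1 was higher and 1 lower in knockdown1 (16.7% called), and 3 higher and 0 lower in knockdown2 (25%). DNAJB1, a co-chaperone of HSP70, rose by 0.75 and 0.42 (adjusted p = 0.000122 and 0.0238), and HSPB1, a small heat shock protein, rose by 0.88 (adjusted p = 3.24e-05) in knockdown2. Of 8 tested mitochondrial chaperones and proteases, 2 were higher and 1 lower in knockdown1 (37.5% called), and 1 higher and 0 lower in knockdown2 (12.5%), with LONP1, the protease of the matrix, higher in both (0.54 and 0.53, adjusted p = 0.00474 and 0.00735).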

How the data were processed

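The deposited values are linear probe-set signals (intensity), made by the authors with MAS5 per the submitters' processing notes, with no version stated there. Each array's trimmed mean was 100.0. The 9 arrays were grouped by their titles. Because array medians differed over 1.2-fold, factors of 0.898 to 1.15 brought them all to 14.1. An intensity has no count behind it, and the number of arrays limits the precision. Of 54675 probe sets, 41091 had 1 gene symbol in the platform annotation, 1801 several, 11721 none and 62 were controls. Probe sets brighter than the array median in 3 or more of the 9 arrays were kept (24565 with 1 symbol), and the brightest per gene was used. MAS5 signals scatter when dim, and 31.6% of tested genes averaged under 50. Of 40 further probe sets of members, 13 belonged to members called in knockdown1, all with the same sign, and 13 to members called in knockdown2, 11 with the same sign and none opposite past the threshold.

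Log2(signal + 1.41), which understates changes of dim genes, was fitted in limma 3.58.1 (R 4.3.3; lmFit, contrasts.fit, eBayes with a variance trend, two-sided) on all 9 arrays with 3 groups, without a replicate block, and p-values were adjusted by Benjamini-Hochberg over 13056 genes. The same fit was also run on simulated data with known changes. Their noise was independent for each gene and array, so the run says nothing of shifts shared by the genes of an array. Alternatives covered the scaling, pseudocount, filter, choice of probe set, variance trend, arrays fitted, a replicate block and each array left out. Members and gene lists were chosen with earlier results of these data known. All members may be named. Values per array are given for ATF4, DDIT3, XBP1, ERN1, ATF6, CREB3L3 and HSPA5 and for the 8 called members with the largest differences in each comparison. From other lists up to 3 called genes each way are named per list and comparison. Promoters came from a RefSeq table of GRCh38.p14, where PSPH, SHMT2, NUPR1 and PDIA3 had no entry. Of members with several annotated starts, each window was searched.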

Additional observations from a re-analysis of the deposited data

Results flagged for a closer look

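For 7 members the difference from control had opposite signs in knockdown1 and knockdown2, and the difference between the knockdowns itself passed the threshold in the limma fit (knockdown1 minus knockdown2, log2, adjusted over 13056 genes). Both effects use the same 3 control arrays. ASNS (asparagine synthetase) differed by 0.99 between the knockdowns, with all 3 knockdown1 arrays above and all 3 knockdown2 arrays below the controls. ERO1B (an ER oxidase) differed by -0.92, with all 3 knockdown1 arrays below and all 3 knockdown2 arrays above the controls. Its dimmer probe set did not have opposite signs, with 0.21 in knockdown1 and 0.77 in knockdown2. Between the knockdowns that probe set differed by -0.56 (adjusted p = 0.0913 in a fit over all probe sets). DNAJB11 (ERdj3) differed by -0.64 and EDEM1 (an ERAD lectin) by -0.54, and for both the knockdown1 arrays lay below all knockdown2 arrays. HSP90B1 (GRP94) differed by -0.45, with -0.44 in knockdown1 and a positive value that rounds to 0.00 in knockdown2, whose sign turned under other scalings. AARS1 (alanyl-tRNA synthetase) differed by 0.44, while neither of its effects against control passed the threshold in this fit. With the deposited values and with quantile normalization both effects passed, higher in knockdown1 and lower in knockdown2. With centring on the tested genes only the knockdown1 effect of AARS1 passed. CEBPB (a C/EBP factor) differed by -0.43, with neither of its effects against control past the threshold in this fit. With centring on the tested genes its knockdown2 effect passed, as a higher value.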

How the results depend on the processing

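Of 47 calls of members over the 3 comparisons, 22 stayed past the threshold under each setting tried and 25 did not, and 0 called values changed sign. Without a variance trend 17 were lost, with the mean of probe sets 8, with no filter 6 and with only the groups compared 3. The gene paragraphs above name chiefly the arrays whose loss ended a call, and not every loss under these settings. The deposited values, quantile normalization, centring on the tested genes and both other pseudocounts lost 0. Calls of members were also gained, 21 with the deposited values, 21 with quantile normalization and 18 with centring. The larger pseudocount added 4, the stricter filter 5, the mean of probe sets 8 and only the groups compared 3. No pseudocount, no filter and no variance trend added 0. A member given above as not past the threshold may therefore pass it under another setting. For the ER arm in knockdown2 the count of 6 was 10 with the deposited values, 11 with quantile normalization, 10 with centring and 10 with the mean of probe sets, and in knockdown1 the count of 9 was 4 without a variance trend. For the ATF4 and serine arm, the count of 7 in knockdown1 was 11 with quantile normalization and the count of 9 in knockdown2 was 5 without a variance trend. Between the knockdowns its count of 8 was 13 with the deposited values, 13 with quantile normalization and 4 without a variance trend. With 1 array left out, ER counts ran from 2 to 10 in knockdown1, from 4 to 10 in knockdown2 and from 5 to 11 between the knockdowns, and ATF4 and serine counts from 6 to 9, from 4 to 13 and from 3 to 13. The cause was not tested, beyond the loss of 1 array. Uncalled values also changed sign. Among members given without array values this happened 65 times over all settings, 9 of them with the mean of probe sets, with values from -0.35 (MTHFD2 in knockdown1) to 0.42 (HERPUD1 in knockdown2) after the change. The others were as follows. ATF4 in knockdown1 was 0.02 with the deposited values, 0.08 with quantile normalization, 0.03 with centring and -0.25 to 0.04 with 1 array left out. XBP1 between the knockdowns was 0.06 with the deposited values, 0.12 with quantile normalization and -0.12 to 0.06 with 1 array left out. With the mean of probe sets, DNAJC3 in knockdown1 was 0.01, ERN1 in knockdown2 0.20, SARS1 in knockdown2 -0.15 and ERN1 between the knockdowns -0.19. With 1 array left out, CREB3L3 between the knockdowns ran from -0.71 to 0.15 (without knockdown1 replicate 3), CRELD2 in knockdown1 from -0.26 to 0.05 and SARS1 in knockdown2 from -0.02 to 0.10 (both turned without control replicate 3). CREB3L3 was not tested with the stricter filter or without any control array. With the replicate number as a block, all 47 calls stayed, 9 were added, and the ER arm had 12 genes called lower in knockdown1. The numbers were not taken to pair the arrays, since deviations of same-numbered arrays correlated at -0.02 to 0.13 and 5 of 9 arrays correlated best with their own number.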
